A study of Mus musculus with 29 samples.

Results

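The messenger RNAs of 9 genes that build and hold the neuromuscular junction were followed in the tibialis anterior (TA), a muscle of the lower hindlimb, of male C57BL/6 mice of 3 ages. The genes were Agrn, Lrp4, Musk, Dok7, Dok4, Rapsn, Ache, Colq and Erbb3, chosen by symbol for their roles at the synapse, and all 9 were found among the 22537 gene symbols of the count table. No measured value entered the choice of the 9, although results of these data were known when they were chosen.

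The mice were untreated and carried no engineered allele that the labels name. Poly-A RNA of the whole muscle was sequenced from 7 mice at 6 months (6m) and 7 mice at 24 months (24m) in a first run, and in a second run from 8 mice labelled 28 months or older (28m), beside which the 7 mice of 6m were made into libraries again, giving 29 libraries of 22 mice. Each old group was compared with the 6m libraries of its own run, and the 2 age comparisons therefore share the 7 mice at 6m. The samples are separate mice within a group. The sequenced muscle came from mice whose physical ability was scored, and the comparison asked how expression in muscle differs between the ages.

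The junction is the synapse at which a motor axon drives a muscle fibre. The nerve terminal releases agrin, which binds LRP4 on the fibre and thereby activates the receptor tyrosine kinase MuSK, with DOK7 as its inner adaptor. MuSK signalling leads rapsyn to gather acetylcholine receptors under the terminal, while acetylcholinesterase, held in the cleft by the collagen ColQ, ends each signal. In muscle, Musk and the receptor subunit genes are transcribed mainly by the nuclei beneath the synapse, and their transcription spreads along the fibre when the nerve is lost. Only few nuclei of a fibre lie beneath the synapse, so these transcripts are scarce in RNA of a whole muscle. In such bulk RNA, fewer cells or nuclei of a kind and less RNA in each of them cannot be told apart.

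The sequence before a start site shows what a regulatory factor could read, and 4 of the 9 genes (Agrn, Musk, Dok7 and Ache) had RefSeq windows of the 250 bases before a start site on GRCm38.p6, 6 windows in all. Lrp4, Dok4, Rapsn, Colq and Erbb3 had none in the table used. Both strands were searched for the N-box core CCGGAA, to which ETS factors such as GABP bind, and for the E-box CANNTG, to which myogenic factors such as myogenin bind. The windows of Musk and Ache are shown because Musk held the most E-boxes of the 6 windows and Ache is the most abundant of the 4 genes per length. Capitals mark the E-boxes, and the sequences run 5′ to 3′ on the strand of the gene, which is plus for both. The Musk window lies at chr4:58285712-58285961 and the Ache window at chr5:137288004-137288253.
Musk: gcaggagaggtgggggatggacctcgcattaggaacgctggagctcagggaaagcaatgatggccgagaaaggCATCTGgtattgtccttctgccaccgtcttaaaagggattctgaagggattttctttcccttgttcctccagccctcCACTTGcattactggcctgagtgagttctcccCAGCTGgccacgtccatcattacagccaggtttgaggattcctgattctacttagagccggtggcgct
Ache: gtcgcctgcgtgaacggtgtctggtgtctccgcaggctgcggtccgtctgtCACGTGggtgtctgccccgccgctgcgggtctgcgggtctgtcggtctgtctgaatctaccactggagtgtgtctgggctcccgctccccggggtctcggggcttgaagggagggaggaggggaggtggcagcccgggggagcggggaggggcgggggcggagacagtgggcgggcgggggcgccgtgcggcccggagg
The Musk window held 3 E-boxes, whose first bases lie 177, 100 and 68 bases before the start site, and the Ache window held 1, at 199 bases. Of the other windows, 1 of Agrn (at 92 bases) and 1 of Dok7 (at 149 bases) held a single E-box, and a second window of each held none. No window held CCGGAA. Of 32851 windows of the same length, 66.2% held an E-box and 12.03% the N-box core, so an E-box in a window is common.

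The genes lie on 6 chromosomes of GRCm38 (mm10), with exonic lengths in the GENCODE annotation that range from 1802 bases for Rapsn to 10504 bases for Lrp4. Total counts on genes were between 17633475 and 33499162 per library. Among markers of the tissue, 8 muscle fibre genes summed to between 136638 and 225002 counts per 1000000 (CPM, on library sizes scaled with TMM, a trimmed mean of log ratios) in every library, so the defining markers of the labelled tissue were high. The 12 measured Schwann cell markers summed to 70.5 to 97.0 CPM in the second-run 6m libraries and 63.0 to 97.0 CPM at 28m. Some libraries stood apart in how expression followed gene length. For each library, the log2 CPM of 13324 genes minus the mean of the other 6m libraries of its run was fitted on log2 exonic length. The slope per doubling of length was between -0.02 and 0.026 in the second-run 6m libraries and between -0.491 and -0.055 at 28m. In the first run it was between -0.299 and 0.093 at 6m, with replicate 4 lowest, and between -0.484 and 0.093 at 24m, with replicate 4 lowest. Long genes thus read lower in all 8 libraries at 28m, most in replicates 7, 3 and 5, and this measure is set beside the results below.

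Levels of different genes can be compared only per length, and here are given as mean CPM per kilobase of exon over the 7 second-run 6m libraries. Rapsn, the receptor-clustering scaffold, led at 18.2 ± 2.19 (SD, n = 7), and Ache, the enzyme of the cleft, followed at 9.61 ± 1.52 (SD, n = 7). Rapsn exceeded Ache, and Ache exceeded Dok7, in every library of all 4 groups. Dok7 at 3.65 ± 0.634 and Musk at 3.47 ± 1.43 (SD, n = 7 each) did not separate, with Dok7 above Musk in 4 of 7 libraries. Dok4 at 2.75 ± 0.378, Agrn at 2.47 ± 0.288 and Colq at 2.02 ± 0.397 followed (SD, n = 7 each). Musk exceeded Dok4 in 5 of 7 libraries and Dok4 exceeded Agrn in 5 of 7, so these neighbours overlapped as well, while Agrn exceeded Colq in 7 of 7. Lrp4 stood at 1.75 ± 0.235 per kilobase, below Colq in 6 of 7 libraries, and Erbb3 was last at 0.615 ± 0.0868 (SD, n = 7 each) and below Lrp4 in all 29 libraries. At 28m, Colq exceeded Lrp4 in 8 of 8 libraries. Agrn exceeded Colq in only 3 of 8 libraries at 28m and 3 of 7 at 24m, and in 6 of 7 first-run 6m libraries. Agrn and Lrp4, of 9285 and 10504 bases, are longer than Colq, of 3803 bases. The length trend given above was not removed from these levels.

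**Figure D1:**
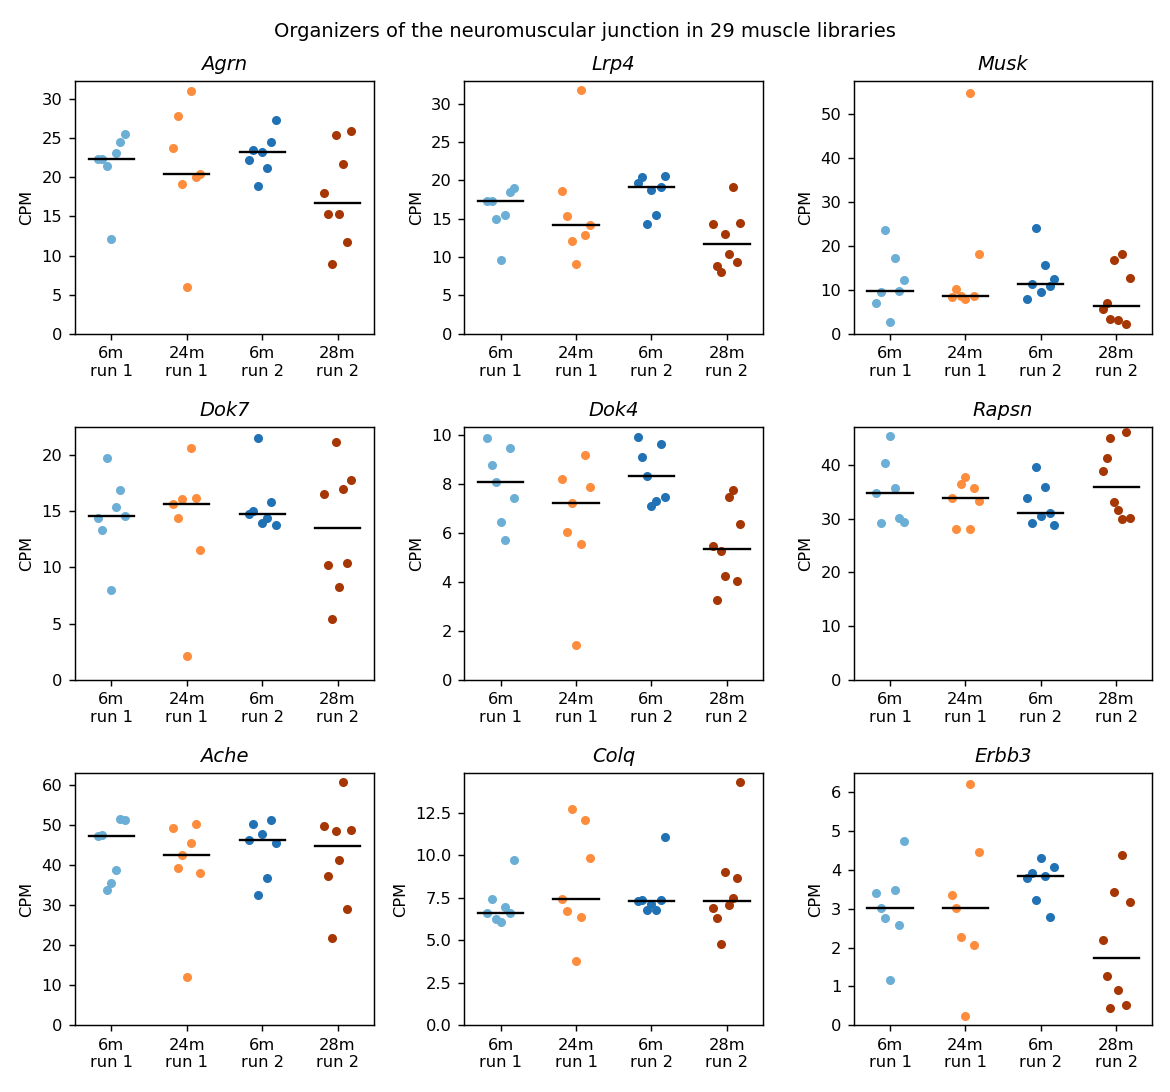
TMM-scaled CPM (vertical axes, each from 0) of the 9 genes in the 29 libraries, with 1 point per library, a line at the group median and groups by age and run on the horizontal axes. Musk in 24m replicate 5 stands at 54.8 CPM against at most 24.0 in any other library, and no gene has 28m points that all lie outside the 6m points of run 2.

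At 28m, 2 of the 9 organizers were lower than at 6m and none was higher: Lrp4, which binds agrin, and Dok4, a docking adaptor of the same family as Dok7. Lrp4 fell to 0.65 and Dok4 to 0.64 of the 6m level, and neither reached the absolute log2 fold change of 1 that defines a differentially expressed gene (DEG) here. Over all 12994 genes tested by edgeR's quasi-likelihood test, 22.9% were called lower and 24.3% higher at an adjusted p under 0.05, so 2 of 9 lower is close to the share among all genes. The 9 log2 fold changes had a median of -0.39, and those of all genes tested 0.01. At an unadjusted p under 0.05, 3 of the 9 passed, against 54.8% of all genes tested. Only Dok4 was called lower, 1 of 9, in each of 3 other edgeR fits, where the share of all genes called lower was 15.6% with the trend over gene length and GC content removed, 11.0% against the first-run 6m libraries and 17.2% without 28m replicates 3, 5 and 7. None of the 9 had 28m libraries that all lay outside the range of the 6m libraries, which held for 12.4% of all genes tested.

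Agrn, at chr4:156165290-156197488 on the minus strand, encodes agrin, which motor neurons release to the muscle and which muscle itself also makes. Agrn ranged from 18.9 to 27.4 CPM with a median of 23.3 at 6m in the second run, and from 8.86 to 25.9 with a median of 16.7 at 28m. At 28m, 5 of 8 libraries lay below every 6m library and the other 3 lay within their range, so the groups overlapped. The log2 fold change was -0.39 (SE 0.19, adjusted p = 0.102 by edgeR's quasi-likelihood test), which did not pass. Without 28m replicate 4 or replicate 8 it passed, at -0.49 (adjusted p = 0.0404) and -0.50 (adjusted p = 0.0357) in edgeR. Once the trend of each library with exonic length and GC content had been taken out, the difference was 0.01 (SE 0.11, edgeR adjusted p = 0.970). The exonic length of Agrn is 9285 bases, the second longest of the 9.

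Lrp4, at chr2:91457511-91513779 on the plus strand, encodes the receptor that hands the agrin signal to MuSK. Its CPM ranged from 14.3 to 20.6 with a median of 19.2 at 6m, and from 8.03 to 19.2 with a median of 11.7 at 28m. At 28m, 5 of 8 libraries lay below all 6m libraries and 3 lay within their range. Lrp4 fell by 0.61 on the log2 scale (SE 0.17, adjusted p = 0.00857 by edgeR) and passed in all 15 fits that each left out 1 library. The call was lost after the length and GC trend was removed (-0.16, adjusted p = 0.237), and Lrp4 has the longest exonic sequence of the 9. It was also lost without 28m replicates 3, 5 and 7 (-0.41, adjusted p = 0.0536), the libraries with the steepest length trend, and against the first-run 6m libraries (-0.42, adjusted p = 0.110, and -0.51, adjusted p = 0.0327 without first-run 6m replicate 4), all by edgeR.

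Musk, at chr4:58285960-58374303 on the plus strand, encodes the kinase at the centre of the pathway and was the member with the widest spread between mice in each of the 4 groups, with coefficients of variation between 41.3% and 103.5%. In the second run, the 7 libraries at 6m held from 7.82 to 24.0 CPM with a median of 11.3. The 8 libraries at 28m held 18.1, 16.9, 12.6, 6.99, 5.55, 3.33, 3.15 and 2.21 CPM. The 28m libraries thus ran from within the 6m range, in 3 of 8, to below all of it, in 5 of 8. The mean difference was -0.62 in log2 (SE 0.42, 95% interval -1.44 to 0.19, adjusted p = 0.222 by edgeR), and the interval holds both a fall and a small rise. The estimate was -0.65 with the length and GC trend removed. The 3 lowest libraries, replicates 7, 5 and 3, were the 3 with the steepest length trend, and without them the difference was -0.13 (SE 0.31, edgeR adjusted p = 0.773). Leaving out the lowest libraries moves the estimate upwards in any case, so this fit does not bear on why they were low.

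Dok7, at chr5:35056766-35087839 on the plus strand, encodes the adaptor that activates MuSK from inside the fibre. It ranged from 13.8 to 21.6 CPM (median 14.8) at 6m and from 5.38 to 21.2 CPM (median 13.5) at 28m, with 4 of 8 libraries below all 6m libraries and 4 within their range. The difference of -0.25 (SE 0.23, adjusted p = 0.395 by edgeR) did not pass, and it was 0.08 without 28m replicates 3, 5 and 7.

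Dok4, at chr8:94863828-94876330 on the minus strand, encodes a further Dok adaptor of receptor tyrosine kinases. Its CPM ranged from 7.11 to 9.90 with a median of 8.30 at 6m. The 8 libraries at 28m held 7.73, 7.45, 6.37, 5.44, 5.24, 4.24, 4.01 and 3.26 CPM. At 28m, 6 of 8 libraries lay below all 6m libraries and the other 2 fell within their range, near its lower end. Dok4 fell by 0.64 on the log2 scale (SE 0.17, adjusted p = 0.00684 by edgeR). It passed in all 15 fits without 1 library and also with the length and GC trend removed (-0.71, adjusted p = 0.00435), against the first-run 6m libraries (-0.56, adjusted p = 0.0393) and without 28m replicates 3, 5 and 7 (-0.64, adjusted p = 0.0141), all in edgeR. Dok4 overlaps Polr2c, a subunit gene of RNA polymerase II on the opposite strand, over 953 exonic bases, 31.20% of the exonic length of Dok4, and the strand setting of the counting is not given in the sources used here. Polr2c rose at 28m by 0.54 in log2 (SE 0.13, adjusted p = 0.00393 by edgeR), in 8 of 8 libraries above all 6m libraries, the direction opposite to Dok4. Whether reads of one gene were counted on the other was not tested. In the same libraries 4 of 6 endothelial markers were called lower and 1 higher, beside 22.9% and 24.3% of all genes. Without 28m replicates 3, 5 and 7, 4 were called lower and none higher, beside 17.2% of all genes lower. None of these markers was at 0. Their sum went from 353 to 396 CPM at 6m to 210 to 303 CPM at 28m, and their part in the Dok4 result was not tested.

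Rapsn, at chr2:91035620-91045729 on the plus strand, encodes rapsyn, which binds acetylcholine receptors and holds them in clusters. It ranged from 28.9 to 39.6 CPM (median 31.1) at 6m and from 30.0 to 46.3 CPM (median 36.0) at 28m. The groups overlapped, with 3 of 8 libraries at 28m above all 6m libraries and none below. The difference was 0.15 in log2 (SE 0.11, 95% interval -0.06 to 0.37, adjusted p = 0.263 by edgeR) and turned to -0.14 (adjusted p = 0.275) with the length and GC trend removed. Rapsn has the shortest exonic sequence of the 9.

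Ache, at chr5:137287519-137294466 on the plus strand, encodes the enzyme that splits acetylcholine. It ranged from 32.7 to 51.3 CPM (median 46.4) at 6m and from 21.7 to 60.8 CPM (median 45.0) at 28m, on both sides of the 6m range. The difference was -0.10 in log2 (SE 0.18, 95% interval -0.45 to 0.25, adjusted p = 0.663 by edgeR), and 0.04 with the length and GC trend removed. Colq, at chr14:31523082-31591343 on the minus strand, encodes the collagen tail that anchors the enzyme in the basal lamina. Colq held 6.77 to 11.1 CPM (median 7.32) at 6m, and 4.80 to 14.3 CPM (median 7.29) in the 28m libraries, which reached past the 6m range on both sides. It shares 199 exonic bases with Gm49387, a gene model on the same strand that has no row in the table. The Colq difference of 0.05 in log2 (SE 0.19, 95% interval -0.33 to 0.42, adjusted p = 0.850 by edgeR) did not pass either.

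Erbb3, at chr10:128567523-128589652 on the minus strand, encodes a receptor for neuregulin, a nerve-derived growth factor, and is made by Schwann cells as well as by muscle. It was the least abundant organizer, with 9 to 103 counts per library at 28m. Its CPM ranged from 2.78 to 4.30 with a median of 3.84 at 6m. The 8 libraries at 28m held 4.38, 3.41, 3.16, 2.20, 1.26, 0.922, 0.525 and 0.440 CPM. At 28m, 5 of 8 libraries lay below all 6m libraries, 1 lay above them and 2 lay within their range. The difference of -0.88 in log2 (SE 0.39, 95% interval -1.64 to -0.11) missed the threshold in edgeR at an adjusted p of 0.0733. limma-voom called it lower (-1.28, adjusted p = 0.0136), as did the edgeR fits without 28m replicate 4, 6 or 8. Without 28m replicates 3, 5 and 7, the 3 lowest libraries and those with the steepest length trend, it was -0.37 (SE 0.23, edgeR adjusted p = 0.227). As for Musk, leaving out the lowest libraries moves the estimate upwards in any case. Over 12 Schwann cell markers, none was called lower at 28m and 1 was called higher, beside 22.9% and 24.3% of all genes. The median of the 12 log2 fold changes was -0.02.

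**Figure D2:**
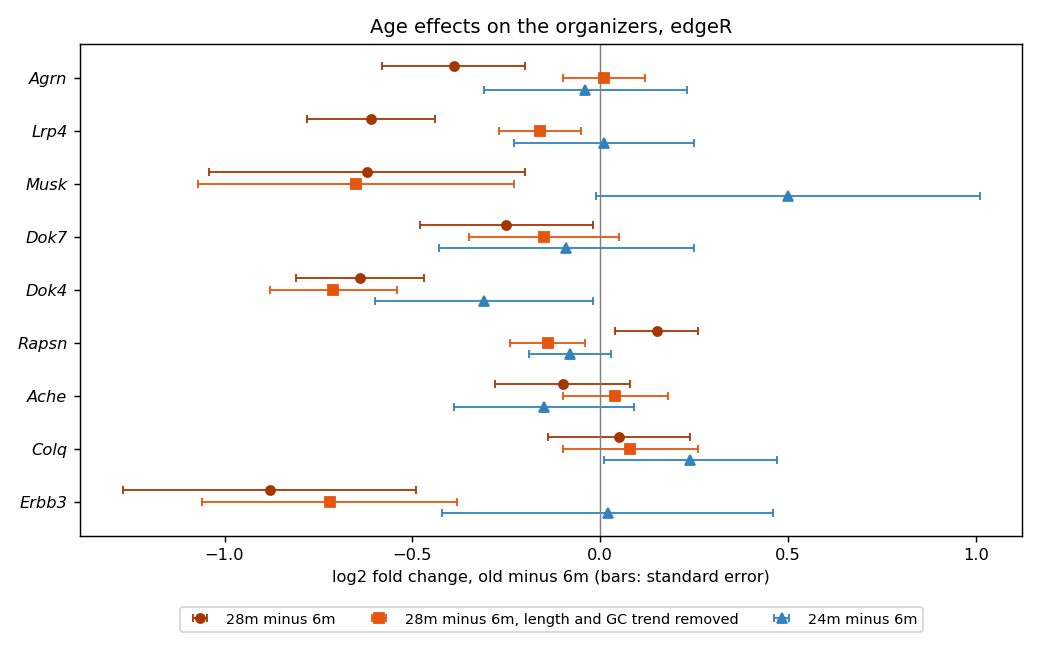
Log2 fold change (horizontal axis, old minus 6m, bars of 1 SE) of each gene at 28m (circles), at 28m with the length and GC trend removed (squares) and at 24m (triangles), from edgeR. Lrp4 moves from -0.61 to -0.16 and Agrn from -0.39 to 0.01 when the trend is removed, while Dok4 stays at -0.64 and -0.71.

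The libraries at 28m that were low for one organizer were often low for others. Of the 3 libraries with the steepest length trend, replicates 3, 5 and 7, all 3 were among the 3 lowest for Musk and for Erbb3, and 2 of them were among the 3 lowest for Agrn, Lrp4, Dok7 and Ache. For Dok4, Rapsn and Colq, 1 of the 3 was. Of all genes tested, 14.5% had all 3 as their 3 lowest libraries and 41.0% had at least 2 among them. Leaving out those 3 libraries, a choice made after seeing the data, left Dok4 as the 1 gene called lower of the 9 and moved the median log2 fold change of the 9 from -0.39 to -0.12. What part of the low values in these libraries belongs to the mice and what part to the libraries was not tested, since each mouse at 28m had 1 library.

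**Figure D3:**
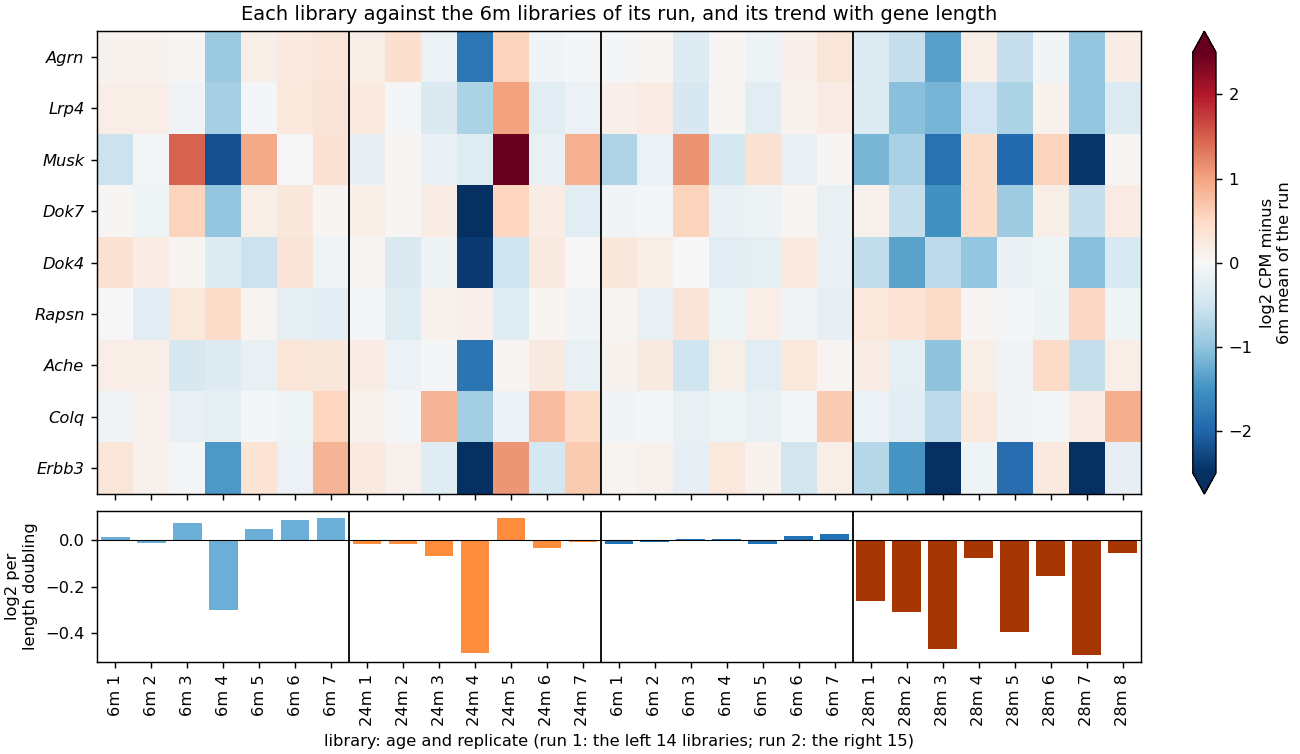
Colours show log2 CPM of each gene (rows) in each library (columns) minus the mean of the 6m libraries of the same run, and bars below show the slope of expression on gene length of the same library, in log2 per doubling of length. Among the 28m libraries, those with the most negative slopes (replicates 7, 3 and 5, at -0.491, -0.465 and -0.393) are the bluest for Musk and Erbb3.

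The 7 mice at 6m were made into libraries in both runs, which gives the spread between libraries of a mouse. Leaving aside mouse 4, the second library minus the first differed by at most 0.36 in log2 CPM for any organizer, and the SD of this difference over 6 mice was between 0.03 for Rapsn and 0.19 for Erbb3. For Musk the SD of this difference was 0.14. The mean of both libraries of a mouse had an SD of 0.58 over the same 6 mice, a spread of means and so not on the same scale as that of the differences. Mouse 3 had the highest Musk of the 6m mice in both runs, at 23.5 and 24.0 CPM, and mouse 7 the highest Colq, at 9.70 and 11.1 CPM. Such differences between mice were thus seen again in a new library.

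Mouse 4 differed between its libraries. Its first library, with a length slope of -0.299, read 2.59 CPM of Musk from 49 counts, and its second library, with a slope of 0.005, read 9.46 CPM from 185 counts. The second exceeded the first by 1.84 in log2 CPM for Musk, 1.82 for Erbb3, 0.96 for Lrp4, 0.93 for Agrn and 0.80 for Dok7. Ache and Colq moved less, by 0.42 and 0.23, Dok4 by 0.14, and Rapsn moved the other way, by -0.57. The muscle was that of 1 mouse, so the differences lie between its libraries. Across all 7 mice, no organizer differed between the runs at 6m by edgeR, where the share called was 0 percent of 12884 genes, with 357 genes at an unadjusted p under 0.05, and with the mouse as a block again none of the genes passed.

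**Figure D4:**
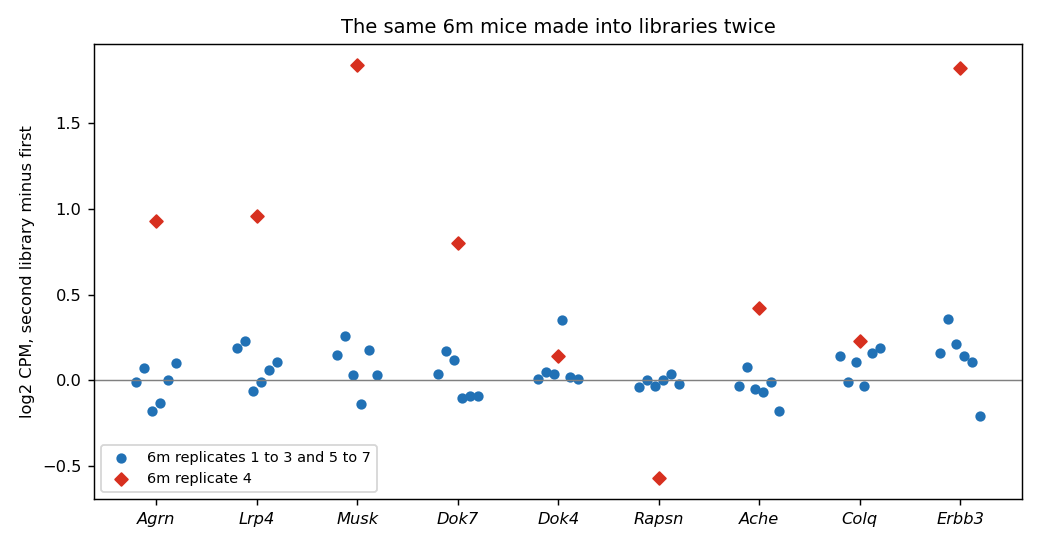
Second minus first library of the same mouse at 6m in log2 CPM (vertical axis) for each gene, with mouse 4 as diamonds and the other 6 mice as circles. Musk and Erbb3 of mouse 4 lie at 1.84 and 1.82, while the other 6 mice stay within 0.36 of 0 for every gene.

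At 24m, none of the 9 organizers was called in either direction by edgeR, and none of the 9 had an unadjusted p under 0.05, which 11.8% of all genes tested had. DESeq2 and limma-voom also called none. Of all 13103 genes tested, 11 were called by edgeR, which is 0.0840%, while DESeq2 called 45 lower and 137 higher. edgeR called 10 lower and 20 higher without 24m replicate 4, and 45 lower and 76 higher without replicate 4 of both ages, an alternative chosen after seeing the data, and no organizer in either fit. The largest estimate was that of Musk, 0.50 in log2 (SE 0.51, 95% interval -0.50 to 1.49, adjusted p = 0.670 by edgeR), and it came from 1 mouse. The 7 libraries at 24m held 54.8, 18.05, 10.1, 8.62, 8.54, 8.39 and 7.87 CPM of Musk, and the 7 first-run 6m libraries ranged from 2.59 to 23.5 CPM with a median of 9.66. Without 24m replicate 5, which held the 54.8, the estimate was -0.19 (adjusted p = 0.812 by edgeR).

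The other 8 genes overlapped between 24m and 6m. Agrn ranged from 12.2 to 25.5 CPM (median 22.3) at 6m and from 5.98 to 31.03 CPM (median 20.4) at 24m, which gives -0.04 in log2 (SE 0.27). Lrp4 ranged from 9.57 to 19.02 CPM (median 17.3) and from 9.06 to 31.8 CPM (median 14.1), with 0.01 (SE 0.24). Dok4 ranged from 5.71 to 9.86 CPM (median 8.08) and from 1.43 to 9.19 CPM (median 7.19), with -0.31 (SE 0.29). All 3 sets of 24m libraries thus spread further on at least 1 side than the 6m libraries. Dok7 had -0.09 (SE 0.34), Rapsn -0.08 (SE 0.11), Ache -0.15 (SE 0.24), Colq 0.24 (SE 0.23) and Erbb3 0.02 (SE 0.44). The adjusted p of these 8 genes was 0.645 or more in edgeR. Without 24m replicates 4 and 5, left out after seeing their values, again none was called, and 1 of the 9 (Colq, 0.45, unadjusted p = 0.0185, edgeR adjusted p = 0.415) had an unadjusted p under 0.05.

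The mouse at 24m with the high Musk, replicate 5, was the highest of the first run for 5 of the 9 organizers, as it was for 15.5% of all genes tested. It held 1733 counts of Musk, 3.03 times the CPM of the next 24m library and 4.70 times the 6m mean. Lrp4 stood at 31.8 CPM (1.98 times the 6m mean), Erbb3 at 6.19 (2.05 times), Agrn at 31.03 (1.44 times) and Dok7 at 20.7 (1.41 times). Dok4, Rapsn and Colq were below their 6m means in this mouse, at 5.53, 28.1 and 6.35 CPM, and Ache stood at 45.5 CPM. Of the 5 acetylcholine receptor subunits, all 5 were highest of the first run in this mouse, and of 9 genes that respond to denervation 6 were. Chrng, the fetal subunit that innervated adult fibres hardly make, stood at 32.1 CPM against at most 0.953 in the first-run 6m libraries. It was 2.14 times the next 24m library, and 5 of 7 libraries at 24m exceeded all 6m libraries for Chrng, so high Chrng was seen in other 24m libraries too. Myog and Gadd45a, at 23.8 and 282 CPM here, were higher in another 24m library, at up to 38.4 and 627 CPM. Its length slope of 0.093 was the highest at 24m and equal to the highest at 6m.

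The mouse at 24m that was lowest for most organizers, replicate 4, had the steepest length slope of the first run, at -0.484. It was the lowest 24m library for 8 of the 9 genes and for 37.7% of all genes tested, with 2.10 CPM of Dok7, 1.43 of Dok4, 12.2 of Ache and 0.245 of Erbb3 (7 counts). Rapsn, the shortest of the 9 genes, was highest in this library among the 24m mice, at 37.9 CPM. For 5 of the 9 organizers, this library and replicate 5 were the lowest and the highest at 24m, as for 13.2% of all genes tested. What part of these counts goes with the length trend was not tested.

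The age effect at 28m was set against that at 24m in a model of all 29 libraries. No organizer differed between the 2 effects by edgeR, and the share called among 13455 genes was 0 percent, with 1611 genes at an unadjusted p under 0.05 and 4 genes called by DESeq2. The count over all genes varied with the libraries, with 453 called lower and 1204 higher by edgeR without 24m replicate 4 and 0 without 24m replicates 4 and 5 together (4475 of 13547 at an unadjusted p under 0.05), and neither fit called an organizer. Without replicate 4, Lrp4 (-0.72, SE 0.28, edgeR adjusted p = 0.0751), Dok4 (-0.50, SE 0.23, adjusted p = 0.125) and Erbb3 (-1.09, SE 0.52, adjusted p = 0.126) had an unadjusted p under 0.05. Without both, 1 of the 9 did, Dok4 (-0.58, SE 0.23, unadjusted p = 0.0188, edgeR adjusted p = 0.0934). With all libraries Lrp4 came nearest, with a difference of -0.61 in log2 (SE 0.30, unadjusted p = 0.0472, adjusted p = 0.415). Musk had the largest difference, at -1.12 (SE 0.68, 95% interval -2.46 to 0.22, edgeR adjusted p = 0.480), which was -0.43 without 24m replicate 5. With the mouse as a block, in limma-voom with an estimated correlation of 0.735 between libraries of a mouse, again none of the 9 passed.

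Ratios of partners within a library do not depend on how libraries are scaled, and 4 pairs were compared in both age comparisons. The length trend of a library still enters a ratio of genes of unlike length, such as Musk (3776 bases) to Lrp4 (10504 bases). It was not removed here. In an exact two-sided permutation test adjusted over these 8 tests, no ratio passed. The log2 ratio of Dok7 to Musk was 0.33 ± 0.39 (SD, n = 7) at 6m and 0.90 ± 0.76 (SD, n = 8) at 28m, with 3 of 8 libraries above all 6m libraries and an exact permutation p of 0.101 (adjusted p = 0.403). For Musk to Lrp4 the ratio was -0.56 ± 0.70 (SD, n = 7) at 6m and -0.83 ± 0.88 (SD, n = 8) at 28m (exact permutation p = 0.525, adjusted p = 0.600). The ratio of the anchor Colq to the enzyme Ache was -2.62 ± 0.21 (SD, n = 7) at 6m in the first run and -2.22 ± 0.48 (SD, n = 7) at 24m, with 4 of 7 libraries above all 6m libraries (exact permutation p = 0.0670, adjusted p = 0.403), and the difference was 0.14 at 28m (exact permutation p = 0.488, adjusted p = 0.600). Agrn to Lrp4 differed by 0.19 at 28m and by -0.09 at 24m, with exact permutation p of 0.159 and 0.714.

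Other genes of the synapse were counted from lists named by role. The acetylcholine receptor subunits, the target that the organizers cluster, were higher at 28m in most of the list. Of 5 subunits 4 were called higher and none lower, beside 24.3% of all genes called higher, and the 5 log2 fold changes had a median of 1.47. Chrng rose by 3.52 (SE 0.81, adjusted p = 0.00322), Chrna1 by 1.84 (SE 0.46, adjusted p = 0.00489) and Chrnb1 by 0.68 (SE 0.17, adjusted p = 0.00522) in edgeR. The rise was uneven, with 5 of 8 libraries above all 6m libraries for Chrng and 7 of 8 for Chrna1 and for Chrnb1. At 28m Chrng held 3.19 ± 4.48 CPM and Chrna1 50.8 ± 58.4 CPM (SD, n = 8 each). With the length and GC trend removed, 2 of 5 were called, beside 21.5% of all genes higher, and Chrnb1 was not among them (0.50, adjusted p = 0.0552). All 5 were called higher without 28m replicates 3, 5 and 7, beside 2292 of 13023 genes. Of 9 genes that respond to denervation, 4 were called higher, beside 24.3% of all genes, and 5 with the trend removed, beside 21.5%. Among the 4 were Myog, which encodes the myogenic factor myogenin (2.09, SE 0.46, adjusted p = 0.00248), and Gadd45a (2.11, SE 0.30, adjusted p = 0.000346), both by edgeR. Of 8 libraries at 28m, 5 lay above all 6m libraries for Myog and 8 for Gadd45a.

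Of the partners and effectors of MuSK inside the fibre, 9 of 23 were called lower and 3 higher at 28m, the median of the 23 log2 fold changes being -0.21, beside 22.9% and 24.3% of all genes. With the length and GC trend removed 4 of 23 were called lower and 3 higher, beside 15.6% and 21.5% of all genes, so the share called lower was then near that of all genes. Abl2, a kinase that acts with MuSK, fell by 1.01 (SE 0.16, adjusted p = 0.000497 by edgeR) and Ptpn11, the phosphatase SHP2, fell by 0.76 (SE 0.13, adjusted p = 0.000620), each with 8 of 8 libraries below all 6m libraries. Pak1, a kinase downstream of Rac and Cdc42, rose by 1.22 (SE 0.22, adjusted p = 0.000879), in 8 of 8 libraries above all 6m libraries. Apc was lower (-0.86, SE 0.16), and Cdc42 (0.30, SE 0.08) and Csnk2a1 (0.31, SE 0.09) were higher, with Cdc42 at 0.07 (edgeR adjusted p = 0.571) once the trend was removed. Then Abl2 stood at -0.61, Ptpn11 at -0.45, Apc at -0.42, Pak1 at 1.20 and Csnk2a1 at 0.54, all still called by edgeR.

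The membrane scaffold and the basal lamina of the synapse, which hold the organizers in place, were lower at 28m in most of the genes listed. Beside 22.9% of all genes called lower, 6 of 10 scaffold genes were called lower and none higher (median log2 fold change -0.83), with Utrn, utrophin, at -0.86 (SE 0.12, edgeR adjusted p = 0.000316), Sntb2, a syntrophin, at -0.85 and Plec, plectin, at -0.81. Of 13 basal lamina genes 10 were called lower and none higher (median -0.87), with Hspg2, the perlecan to which ColQ binds, at -1.49 (SE 0.24, edgeR adjusted p = 0.000563), Col4a4 at -1.37 and Lamc1 at -1.12. Many of these genes are long, and with the length and GC trend removed the counts were 4 lower and 2 higher of 10, and 7 lower and none higher of 13, beside 15.6% lower and 21.5% higher of all genes, so the share of scaffold genes called higher was then close to that of all genes. Plec then lost its call (-0.22, edgeR adjusted p = 0.0550), and Utrn and Sntb2 stood at -0.33 and -0.50, Hspg2 at -0.95, Col4a4 at -0.93 and Lamc1 at -0.76. In the same libraries, besides the endothelial markers given with Dok4, 3 of 6 fibroblast markers were called lower, their sum going from 535 to 2772 CPM at 6m to 318 to 1162 CPM at 28m. With the trend removed, 0 fibroblast markers and 3 of 6 endothelial markers were called lower. The part of these cells in the basal lamina result was not tested.

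The second cholinesterase of muscle, Bche, fell by 0.75 (SE 0.15, adjusted p = 0.00162 by edgeR), and Prima1, which anchors acetylcholinesterase in membranes, fell by 1.87 (SE 0.44, adjusted p = 0.00383), with 7 of 8 and 5 of 8 libraries below all 6m libraries. Both were also called with the length and GC trend removed. Ache and Colq themselves were not called. Of all genes at 28m, 22.9% were called lower and 24.3% higher. Of 4 other Dok adaptors none was called, and Dok2 had the lowest p (0.65, SE 0.38, adjusted p = 0.165 by edgeR). In neuregulin signalling and synaptic transcription, Gabpa, the ETS factor of the N-box, was called lower (-0.26, SE 0.09, adjusted p = 0.0237) and Etv4 higher (0.75, SE 0.24, adjusted p = 0.0171) of 5 genes tested by edgeR. In each direction 1 of 5 is close to the share of all genes. With the length and GC trend removed, Gabpa was no longer called (-0.19, edgeR adjusted p = 0.0535), and Etv4 and Gabpb1, a partner of Gabpa named after its value was seen, were higher (0.70 and 0.39, adjusted p = 0.0207 and 0.0213). Nrg1, Nrg2 and Erbb4 had too few counts to be tested. The same held for Chat, Slc18a3, Slc5a7, Snap25 and Syt2 of the motor nerve terminal, whose transcripts lie mainly in the cell bodies in the spinal cord, and of the 4 nerve terminal genes that were tested none was called. With the trend removed, 15.6% of all genes were called lower and 21.5% higher. Then 1 gene each of the Dok and nerve terminal lists was called by edgeR. These were Dok5 lower (-0.58, edgeR adjusted p = 0.0134) and Vamp1 higher (0.28, edgeR adjusted p = 0.0273), both named after their values were seen.

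At 24m none of the genes in these lists was called by edgeR. Among log2 fold changes, the median was 2.28 for the receptor subunits and 2.13 for the denervation genes, against 0.03 over all genes, and Chrng (4.97, SE 1.13, adjusted p = 0.121) and Runx1 (2.86, SE 0.65, adjusted p = 0.121) had the lowest p of their lists. Without 24m replicates 4 and 5 these medians were 0.50 and 1.06. The other lists of synaptic genes had medians between -0.77 and 0.25. Of the cell type markers, the Schwann cell list had a median of 0.32 and the macrophage list of 1.14, with none called with all libraries. Of 12 Schwann cell markers 1 was called higher without 24m replicates 4 and 5 and without replicate 4 of both ages, and the latter fit also called 1 of 23 MuSK partners lower. Of all genes, 27 of 13208 and 76 of 13139 were called higher in these 2 fits, and 45 lower in the latter.

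**Figure D5:**
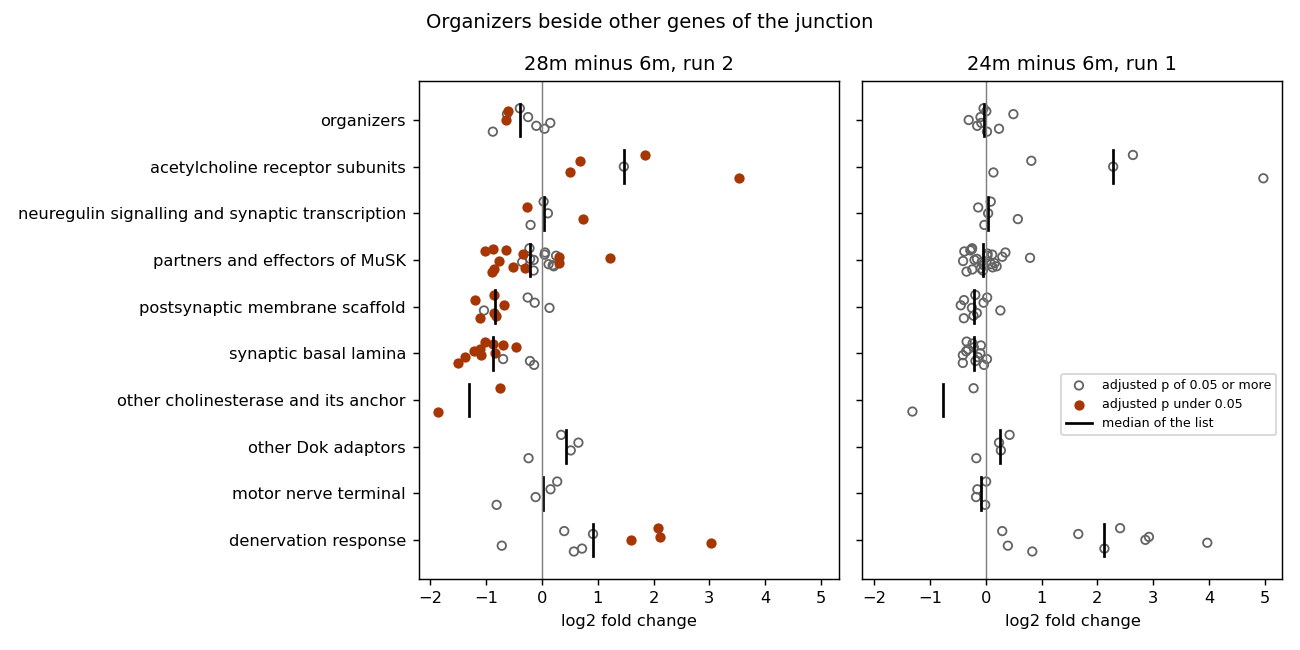
Log2 fold change (horizontal axis) of each gene tested in the lists (rows) at 28m and at 24m, filled where the adjusted p by edgeR was under 0.05, with a line at the median of each list. The organizers have a median of -0.39 at 28m and -0.04 at 24m, against 1.47 and 2.28 for the acetylcholine receptor subunits.

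The genes whose pattern was most like that of each organizer were sought among 11959 other genes by Pearson's r of log2 CPM over the 15 second-run libraries, which share the length trend and the age groups, so that r is a description. Musk was followed most closely by Kpnb1 (r = 0.960), Mfsd12 (0.955) and Eya4 (0.954), and Erbb3 by Stim1 (0.984), Tmem48 (0.980) and Nedd4 (0.980). For Agrn the first was Ppm1f (0.978), for Lrp4 Slc22a23 (0.975), for Dok7 Ercc4 (0.945), for Dok4 Pcdh12 (0.957), for Rapsn Fbxo6 (0.922) and for Ache Cdh19 (0.933), one of the Schwann cell markers. Colq had the loosest followers, with Bahd1 first at 0.813.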

How the data were processed

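Poly-A RNA of whole TA muscle was sequenced as 75-base single-end reads. Per the labels and the study's methods, the authors aligned reads to mm10 with STAR 2.5.4b and deposited gene counts, which were not normalised. Which mice at 6m were sequenced in both runs was read from the sample titles, and the mouse was a block only in alternatives, beside fits without it. The labels were followed for 7 mice at 24m and 8 at 28m, although the design text of the series gives the reverse.

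Counts were tested with edgeR 4.0.16 in R 4.3.3 (filterByExpr, TMM, quasi-likelihood F test, Benjamini-Hochberg adjustment over all genes tested, threshold 0.05), with DESeq2 1.42.0 and limma 3.58.1 as alternatives. Standard errors were derived from the F statistic, and intervals are 1.96 SE on either side. CPM of single libraries used TMM over all 29 libraries, and log2 CPM a prior count of 2. Within-library ratios added 0.5 to each count. Total counts of 17633475 to 33499162 leave Erbb3 with the fewest counts, 7 in 1 library. Exonic length and GC came from GENCODE for GRCm38, with 20202 genes found by symbol, 1904 by an older name and 431 not at all. The length and GC trend was fitted in each library with splines and removed as an offset. Fits were tested on simulated data.

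The genes and lists were chosen with earlier results of these data known. All 9 organizers are named. From each list up to 3 genes per direction with the lowest p among those called are named, or the gene with the lowest p where none was called, and the genes of 24m replicate 5 and Polr2c were named after their values were seen. Results for some genes that this rule names are not reported here. Figures were drawn with matplotlib 3.10.9.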

Additional observations from a re-analysis of the deposited data

Results flagged for a closer look

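In 8 of 36 sets of libraries (9 genes in 4 groups), the highest or lowest library lay further from the nearest other than Dixon's 95% limit allows, where chance gives about 1 in 20. In the first run at 6m, Agrn was low in replicate 4 (12.2 CPM), whose second library read 23.3 CPM, and Colq was high in replicate 7 (9.70 CPM). Colq was high again in the second library of that mouse (11.1 CPM). Dok7 was high in second-run 6m replicate 3 (21.6 CPM), which read 19.8 CPM in the first run. At 24m, Musk (54.8 CPM) and Lrp4 (31.8 CPM) were high in replicate 5 and Ache was low in replicate 4 (12.2 CPM), the library with a length slope of -0.484. At 28m, Colq was high in replicate 8 (14.3 CPM), against at most 9.05 CPM in the other 7 libraries, and without it the difference of Colq went from 0.05 to -0.13.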

How the results depend on the processing

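The count of organizers called lower at 28m was 2 of 9, beside 2981 of 12994 genes (22.9%). It was 1 (Dok4) with the length and GC trend removed (15.6% of all genes), against the first-run 6m libraries (11.0%), and without 28m replicates 3, 5 and 7 (17.2%). In the fits without 1 library it was between 2 and 4. It was 4 without 28m replicate 4 (3252 of 12917 genes lower) or 8 (3276 of 12925). DESeq2, other scalings and no filter kept it at 2, and limma-voom gave 3, beside 3225 of 12994 genes. With at least 10 counts in every library, Erbb3 was not tested. None was called at 24m under any alternative run. Over all results and alternatives, 1090 values kept direction and side of the threshold or, for counts, stayed within 1.5 times the reported count (limma-voom's 3 among them, where Erbb3 passed), 9 newly passed, 3 no longer passed (Lrp4 in the fits that left Dok4 alone), 5 counts moved further and 38 changed sign. The cause was not tested for those below.

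Signs that changed were of differences that had not passed. With the trend removed, at 28m Agrn gave 0.01, Rapsn -0.14 and Ache 0.04, at 24m Erbb3 -0.02, and in the difference of the age effects Agrn 0.02. Without 28m replicates 3, 5 and 7, Dok7 gave 0.08 and Ache 0.13. At 24m, limma-voom gave Lrp4 -0.06 and Erbb3 -0.31, and the second-run 6m libraries gave Lrp4 -0.19, Rapsn 0.01 and Erbb3 -0.27. Leaving out 24m replicates 4 and 5 gave Agrn 0.04, Lrp4 -0.14, Musk -0.12, Dok7 0.01 and, in the difference of the effects, Ache -0.09. Leaving out replicate 4 of both ages gave Agrn 0.03. These last fits were chosen after seeing the data, as was the first-run comparison without 6m replicate 4.

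Without 1 library, the ranges at 28m were -0.19 to 0.0034 for Ache, -0.13 to 0.16 for Colq, -0.50 to -0.29 for Agrn and -1.13 to -0.72 for Erbb3. At 24m they were -0.15 to 0.12 for Agrn, -0.23 to 0.12 for Lrp4, -0.19 to 0.77 for Musk, -0.21 to 0.10 for Dok7, -0.22 to 0.01 for Ache and -0.23 to 0.23 for Erbb3. In the difference of the effects Ache ran from -0.09 to 0.17. Between the runs at 6m, Agrn ran from -0.01 to 0.13 and Ache from -0.04 to 0.06. The ratio of Dok7 to Musk at 28m ran from 0.38 to 0.71 (exact permutation p = 0.0367 without 28m replicate 6), and at 24m Colq to Ache ran from 0.31 to 0.51 (exact permutation p = 0.0239 without 24m replicate 5 and 0.0321 without replicate 1) and Agrn to Lrp4 from -0.17 to 0.07. With the mouse as a block, the differences of the 28m and 24m effects and between the runs at 6m called 0 organizers, as without it.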
